A study of Mus musculus with 24 samples.

Results

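Control microglia of 9 months were set against control microglia of 4 months. The comparison takes 8 of the 24 bulk RNA-seq libraries of the series, chosen by their labels: 4 from wild-type (wt) mice aged 4 months (replicates 1, 2, 3 and 4) and 4 from wt mice aged 9 months (replicates 1, 2_4, 3 and 5). All 8 came from the hippocampus of male mice without the transgene. They served as controls for APP/PS1 mice, an amyloid model, whose libraries are not compared here. The microglia were released enzymatically in the cold and sorted by FACS for nucleated (DRAQ5+), propidium iodide-negative cells that were CD11b high, CD45 intermediate and CD49d-negative, a gate that leaves out CD49d+ blood monocytes. The labels give no mouse strain, no sorting day and no meaning for the name 2_4. Nor do they tie a library to a mouse. Each p-value is therefore set against the spread among these libraries, part of which may be technical.

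Microglia are the resident macrophages of the brain. In the healthy adult brain they keep a homeostatic programme that depends on CSF1 receptor and TGF-beta signalling, and they survey the tissue with purinergic and chemokine receptors such as P2RY12 and CX3CR1. Near amyloid plaques, and in a share of cells with age, they can take on a disease-associated (DAM) state in which Apoe, Cst7, Clec7a, Lpl and Itgax are raised, in part through the lipid receptor TREM2. Aged microglia are also known for interferon-response genes, lipid droplets and loaded lysosomes.

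The libraries held 9193425 to 14198506 counts and 15305 to 17532 detected genes. All 10 markers of microglia fixed for the check were present in every library, the lowest being Sall1 at 332 CPM or more (CPM is the count scaled to library size with TMM factors, with no correction for gene length). The male label held: Xist was at 0 counts in all 8 libraries and Y-linked genes were present. Several libraries stood apart within their age. At 4 months, replicate 3 was low in Csf1r, Tmem119 and Cx3cr1. At 9 months, replicate 1 was high in DAM and interferon genes. Replicate 5 had the fewest counts (9193425) and detected genes, and no Ttr count. It scored 107 on the first principal component (21.8% of the variance), where the others lay between −34.9 and 2.1. On component 2 (18.5%), 9 months replicate 1 scored 83.6 and 4 months replicate 2 −65.9. On component 3 (17%), 9 months replicate 3 scored −88.9. In bulk RNA, fewer cells of a type and less RNA per cell cannot be told apart.

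No gene passed the test between the ages. Of 12957 genes tested, edgeR's quasi-likelihood test called 0 higher and 0 lower at 9 months at an adjusted p under 0.05 (background 0% in each direction), and the smallest adjusted p was 0.2. Without 9 months replicate 1 it called 0 of 12646 (0%), with a smallest adjusted p of 0.64. At an unadjusted p under 0.05 there were 366 genes higher (2.82% of those tested) and 380 lower (2.93%). All 9-month libraries lay above all 4-month libraries in 336 genes (2.59%) and below them in 304 (2.35%). The biological coefficient of variation was 51.7%. DESeq2, run on the same genes as an alternative, called 36 genes higher (0.278%) and 27 lower (0.208%), and 60 of these 63 did not overlap between the ages. Without 9 months replicate 1 DESeq2 still called 31 of the 63, did not call 23 and gave no adjusted p for 9. Those not called included Apoe, Cybb, Prdx3, Ftl1-ps1, Mycbp2, Lsp1, Pdcd1, Fli1, Ncstn, Glul and Map3k1, and those with no adjusted p included Spp1, Kdr, Ntrk2, Tpx2 and Zfp458. A gene said below to be higher or lower did not pass the edgeR test and is described by its values. The median log2 fold change (log2 FC, 9 minus 4 months, with its standard error, SE) over all genes tested was 0.01.

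Among the genes higher at 9 months, the smallest p-value belonged to Atp1b2, which encodes the beta-2 subunit of the sodium-potassium pump and is best known from astrocytes. Its level was 7.91, 8.68, 5.58 and 7.12 CPM in the 4 libraries of 4 months and 29.5, 45.6, 27.2 and 30.3 CPM in those of 9 months. Every older library was above every younger one, with a log2 FC of 2.18 (SE 0.28, edgeR adjusted p = 0.2, DESeq2 2.2e-09). Leaving out 9 months replicate 1 gave a log2 FC of 2.23. Smarcc1, a core subunit of the SWI/SNF chromatin-remodelling complex, went from 20.02, 19.5, 21.8 and 20.3 CPM to 41.8, 36.8, 58.8 and 43.6 CPM. Its 4 younger libraries were within a narrow range, and the log2 FC was 1.15 (SE 0.21, edgeR adjusted p = 0.62, DESeq2 0.00072). Apc, the scaffold of the complex that marks beta-catenin for destruction, was at 25.2, 32.6, 33.8 and 24.7 CPM and then at 68.3, 51.2, 59.7 and 57.9 CPM (log2 FC 1.03, SE 0.20). Stx17, a SNARE protein of autophagosome fusion with the lysosome, was at 6.56, 8.08, 7.899 and 4.898 CPM and then at 15.5, 27.6, 22.3 and 19.5 CPM (log2 FC 1.63, SE 0.32). DESeq2 called Apc (adjusted p = 0.0012) and Stx17 (0.0013) too. Retnlg, a secreted resistin-like protein made by neutrophils, had 0, 0, 15 and 10 counts at 4 months and 112, 282, 388 and 244 counts at 9 months. Its mean was 0.618 ± 0.767 CPM (SD, n = 4) and 21.1 ± 7.21 CPM, and DESeq2 gave it an adjusted p of 2e-05. Its fitted fold depends on the libraries at 0 and is not given.

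Among the genes lower at 9 months, Abhd5 had the smallest p-value. It encodes the co-activator that switches on adipose triglyceride lipase at the surface of lipid droplets. It was at 29.4, 28.8, 37.7 and 34.8 CPM at 4 months and at 12.5, 11.9, 13.02 and 12.8 CPM at 9 months. The older libraries lay almost on one value, and the log2 FC was −1.38 both with all 8 libraries (SE 0.22, edgeR adjusted p = 0.56, DESeq2 5.9e-06) and without 9 months replicate 1. Rab39, a small GTPase of vesicle traffic, was at 131, 103, 129 and 115 CPM and then at 53.7, 69.3, 71.96 and 65.2 CPM (log2 FC −0.88, SE 0.16, DESeq2 adjusted p = 0.00023). The tetraspanin gene Tspan13 was at 607, 528, 612 and 515 CPM and then at 401, 367, 396 and 403 CPM (log2 FC −0.53, SE 0.11, DESeq2 adjusted p = 0.0028). In both genes the ages did not overlap. Tpx2, which encodes a spindle assembly factor of dividing cells, and the zinc-finger gene Zfp458 had no count in any library of 9 months. At 4 months Tpx2 was at 6.81, 7.39, 3.58 and 1.78 CPM and Zfp458 at 6.48, 3.696, 6.53 and 1.34 CPM. Against a floor of 3 counts over the 9-month group, Tpx2 was at least 78.1-fold and Zfp458 at least 72.0-fold lower (DESeq2 adjusted p = 7.2e-06 and 2e-05). Both passed the filter through the younger libraries alone. Tpx2 was the single one of 30 tested proliferation genes to lie wholly below, where 2.35% of all genes tested did. Without 9 months replicate 1 the smallest p-values also included the pseudogene Gm9800 (higher, log2 FC 0.94) and Tbpl1, a TATA-box-binding protein relative (lower, −0.80). They included 5930430L01Rik too, whose only 9-month library with counts was the one left out.

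**Figure D1:**
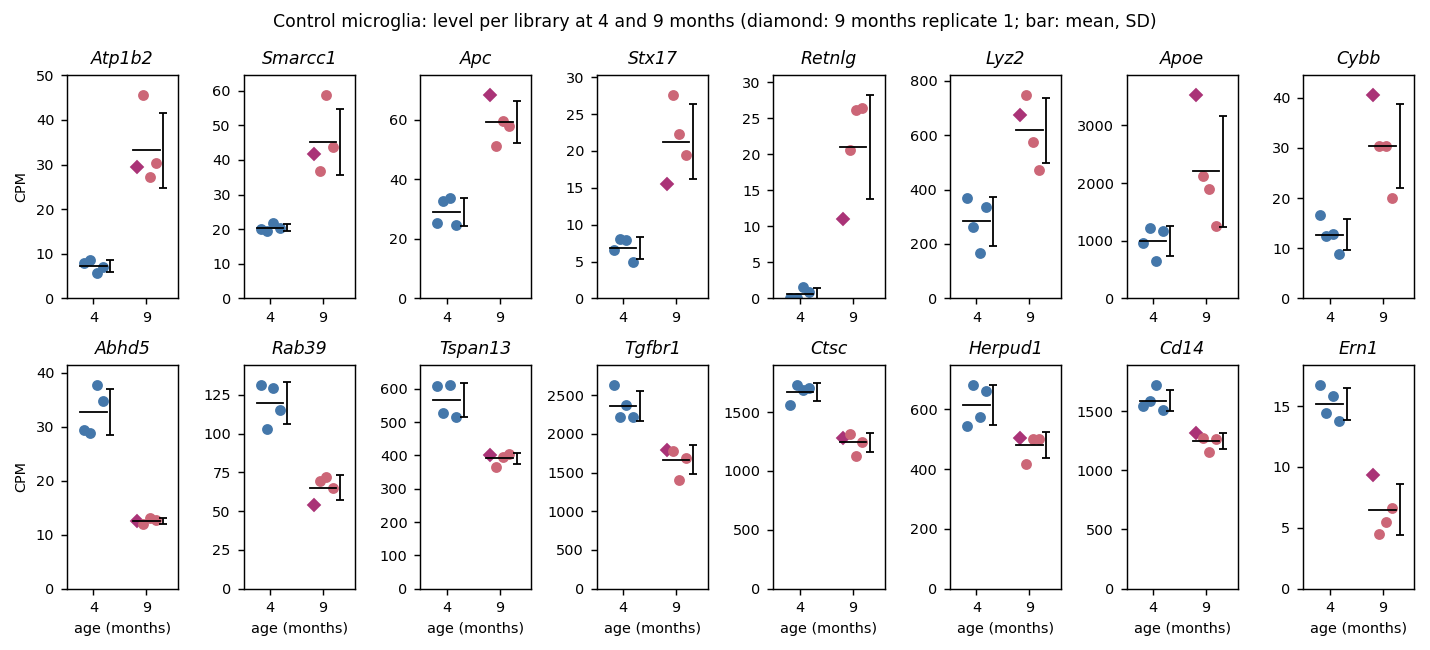
Level in CPM (y axis, from 0) of 16 genes in each library at 4 and 9 months (x axis); points are libraries, the diamond is 9 months replicate 1, and bars give the mean and SD of 4 libraries. In all 16 genes the ages do not overlap: the 8 genes of the upper row are higher at 9 months, Atp1b2 at 27.2 to 45.6 against 5.58 to 8.68 CPM, and the 8 of the lower row are lower, Abhd5 at 11.9 to 13.02 against 28.8 to 37.7 CPM.

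The genes of this paragraph, called by DESeq2 at adjusted p from 0.0028 to 0.045, were picked for the text with their values known. Higher at 9 months were Macf1 (83.0 ± 30.4 and 180 ± 58.3 CPM) and Dst (50.6 ± 19.1 and 115 ± 8.90 CPM), both cytoskeletal cross-linkers, Herc2 and Mycbp2, both ubiquitin ligases, and Vps13d, a lipid-transfer protein. Higher too were Pi4ka, a phosphatidylinositol kinase, the haematopoietic regulator Lmo2 (35.2 ± 3.61 and 59.0 ± 5.25 CPM) and Lsp1, an actin-binding protein of leukocytes (76.6 ± 13.6 and 126 ± 6.14 CPM). Pdcd1, the gene of the checkpoint receptor PD-1, was at 6.11 ± 2.94 and 20.7 ± 5.65 CPM. Lower at 9 months were Ptafr, the receptor for platelet-activating factor, at 496 ± 157 and 261 ± 14.6 CPM, and Cysltr1, a receptor for cysteinyl leukotrienes, at 397 ± 37.1 and 275 ± 32.6 CPM. Itpripl1, a membrane protein gene, was at 907 ± 340 and 427 ± 31.2 CPM. The ETS transcription factor gene Fli1 was at 605 ± 19.4 and 417 ± 64.0 CPM. Ncstn, the nicastrin subunit of gamma-secretase, was at 573, 590.2, 587 and 596 CPM at 4 months and at 399, 441, 427 and 503 CPM at 9 months (log2 FC −0.41, SE 0.10, DESeq2 adjusted p = 0.045). The glutamine synthetase gene Glul went from 741, 747, 787 and 677 CPM to 538, 571, 549.6 and 550.3 CPM. Map3k1 and Numb overlapped: at 4 months replicate 4 lay at 43.0 and 104 CPM, within the 9-month range, while the other 3 lay at 174 to 397 and 365 to 469 CPM. Without that library they were the 2 genes edgeR called lower, at adjusted p of 0.043 and 0.0051.

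Homeostatic genes were mostly a little lower at 9 months, with none past the test. Of 30 members tested, 9 were higher and 21 lower, with a median log2 FC of −0.15 (−0.12 without 9 months replicate 1) against 0.01 over all genes. The median was −0.097 without 9 months replicate 3. The ages did not overlap in 5, with 4 below (2.35% over all genes tested) and 1 above (2.59%), among them Tgfbr1, Bhlhe41 and Fcrls, which lay lower, and Siglech, which lay higher. Tgfbr1 encodes the type I TGF-beta receptor, which microglia need to keep their identity. It was at 2632, 2213, 2372 and 2224 CPM at 4 months and at 1798, 1785, 1398 and 1695 CPM at 9 months (log2 FC −0.50, SE 0.11, edgeR adjusted p = 0.62, DESeq2 0.022). In 4 months replicate 3 the growth factor receptor gene Csf1r was low (6903, 6768, 2752 and 7013 CPM, then 4433, 5104, 4740 and 5130 CPM). Leaving that library out moved Csf1r from −0.27 to −0.51, Tmem119 from −0.19 to −0.40 and Cx3cr1 from −0.10 to −0.27. The purinergic receptor gene P2ry12 was at 18580 ± 3296 and 15940 ± 1771 CPM (log2 FC −0.22, −0.10 without that library). The identity factor gene Sall1 was at 432 ± 80.0 and 445 ± 51.5 CPM.

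Genes of the TGF-beta pathway, Tgfbr1 included, were lower in 13 of 17 tested, with a median log2 FC of −0.30 (−0.35 without 9 months replicate 1). The median was −0.15 without 9 months replicate 3, and −0.17, −0.17 and −0.19 without 4 months replicate 1, 2 or 4. Smad2 and Tgfbr1 lay wholly below, where 2.35% of all genes tested did. Smad2, a receptor-activated signal transducer, was at 48.8, 83.03, 65.5 and 67.7 CPM and then at 40.4, 38.9, 42.96 and 46.3 CPM, with no overlap. Skil, a target and feedback inhibitor of the pathway, was at 322, 281, 435 and 198 CPM and then at 202, 186, 162 and 175 CPM, where 1 younger library lay within the older range. Ski, the related inhibitor, was higher, at 179 ± 21.3 and 235 ± 46.0 CPM. Summed over the 22 listed genes in the table, the level was 4339 to 4861 CPM at 4 months and 3193 to 3866 CPM at 9 months. Tgfbr1 alone made up a mean of 2361 CPM of that at 4 months and 1669 CPM at 9 months. Without Tgfbr1 the sums of the ages overlapped. With 9 months replicate 1 left out, 3 of the 17 members lay wholly above and 4 wholly below. Of all 12957 genes tested, 574 and 513 did.

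DAM genes were higher at 9 months, and for many of them 1 library carried the difference. Of the 9 stage 1 genes, which rise before TREM2 is needed, 8 were higher and 1 lower (6 and 3 without 9 months replicate 1). Lyz2 and Apoe lay wholly above, where 2.59% of all genes tested did. The lysozyme gene Lyz2 was at 369, 264, 166 and 338 CPM at 4 months and at 675, 748, 576 and 472 CPM at 9 months (log2 FC 1.12, SE 0.24, edgeR adjusted p = 0.62, DESeq2 0.0029). All older libraries were above all younger ones, and the log2 FC was 1.07 without 9 months replicate 1. Apoe, the lipid carrier, was at 967, 1217, 642 and 1162 CPM and then at 3528, 2125, 1897 and 1255 CPM (log2 FC 1.14, SE 0.30, DESeq2 adjusted p = 0.023). The lowest older library was just above the highest younger one, and without 9 months replicate 1 the log2 FC was 0.82 and DESeq2 no longer called it. The ferritin heavy chain gene Fth1 (1163 ± 114 and 1492 ± 196 CPM) and the TREM2 adaptor gene Tyrobp (792 ± 88.2 and 973 ± 113 CPM) overlapped. Trem2 itself was at 2080 ± 113 and 2112 ± 234 CPM.

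Of 26 stage 2 genes tested, 22 were higher and 4 lower, with a median log2 FC of 0.45, and of 0.21 (19 higher, 7 lower) without 9 months replicate 1. The ages overlapped in every one of the 26. Cst7, the cathepsin inhibitor cystatin F, was at 12.03, 5.07, 11.3 and 13.2 CPM at 4 months and at 285, 15.6, 29.5 and 11.4 CPM at 9 months. Replicate 1 was far above the rest, and without it the log2 FC moved from 3.04 to 0.86. Clec7a, the beta-glucan receptor dectin-1, was at 12.8, 25.8, 19.8 and 7.21 CPM and then at 159, 43.1, 33.8 and 22.6 CPM (log2 FC 1.98, and 1.02 without replicate 1). The lipoprotein lipase gene Lpl went from 5.21, 23.9, 16.4 and 9.97 CPM to 57.5, 24.7, 20.4 and 15.9 CPM (1.09 and 0.55). Spp1, the secreted protein osteopontin, followed another library: it was at 1.68, 4.04, 2.84 and 0.9796 CPM and then at 29.1, 1.099, 25.02 and 21.97 CPM, low only in replicate 2_4. Its log2 FC was 3.01 (SE 0.84, edgeR adjusted p = 0.68, DESeq2 0.032) and 2.74 without replicate 1. For 3 genes the sign turned without replicate 1. The growth factor gene Igf1 moved from 0.60 to −3.20, the integrin gene Itgax from 0.30 to −0.89 and the receptor kinase gene Axl from 0.81 to −0.13. Igf1 was at 4.46, 1.203, 4.63 and 3.83 CPM and then at 20.4, 1.099, 0 and 0 CPM.

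Interferon-response genes gave a like picture. Of 39 tested, 36 were higher and 3 lower at 9 months, with a median log2 FC of 0.48, and 0.23 without 9 months replicate 1 (26 higher, 11 lower). Ifi204, an interferon-induced DNA sensor, was the single member without overlap, where 2.59% of all genes tested lay wholly above. It was at 1.68, 0, 3.79 and 5.7 CPM and then at 12.4, 8.94, 12.5 and 8.77 CPM. Replicate 1 was the high library for the deconjugating enzyme gene Usp18 (29.9 CPM against 9.45 to 12.99 CPM in the other older libraries), the transcription factor gene Irf7 (24.1 against 3.64 to 7.03 CPM) and Ifit3 (66.3 against 15.4 to 29.1 CPM). At 4 months these 3 genes lay at 5.24 to 10.3, 1.55 to 5.97 and 14.8 to 19.3 CPM.

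Antigen presentation and complement genes overlapped between the ages in every tested member. MHC class II genes were higher in 6 of 7 (median log2 FC 0.44, and 0.18 without 4 months replicate 3), with wide and overlapping ranges: the invariant chain gene Cd74 was at 268, 634, 154 and 460.2 CPM and then at 494, 740.5, 626 and 199 CPM. MHC class I genes were higher in 8 of 11 (0.09), with H2-D1 at 555 ± 131 and 631 ± 112 CPM and H2-K1 at 270 ± 60.9 and 290 ± 56.5 CPM. Complement and Fc receptor genes were split, 7 higher and 7 lower. Of 26 inflammatory genes, 12 were higher and 14 lower (18 higher without 4 months replicate 1). The ages did not overlap in 2, with 1 above (2.59% over all genes tested) and 1 below (2.35%). Their summed level was 3051 to 3150 CPM at 4 months and lower, at 2541 to 3008 CPM, in all libraries of 9 months. Cd14 alone made up 1513 to 1722 CPM of that sum at 4 months and 1155 to 1314 CPM at 9 months. Without Cd14 the sums of the ages overlapped. Cd14, the lipopolysaccharide co-receptor, was lower, at 1543, 1586, 1722 and 1513 CPM and then at 1314, 1274, 1155 and 1266 CPM (log2 FC −0.34, SE 0.09, edgeR adjusted p = 0.68). The chemokine gene Ccl12 was higher, at 24.7, 34.9, 55.7 and 34.5 CPM and then at 109.8, 57.5, 66.1 and 70.6 CPM (1.02, SE 0.29). Il1b was at 2.61 ± 1.93 and 2.44 ± 2.65 CPM, and Tnf was too low to be tested, with counts in 1 library at 4 months and 2 at 9 months.

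Lysosomal genes were lower in 24 of 33 tested (median log2 FC −0.10, and −0.05 without 9 months replicate 2_4), and in 19 of 33 when libraries were scaled by their totals alone. Ctsc, the protease cathepsin C, was at 1561, 1729, 1685 and 1705 CPM and then at 1281, 1317, 1125 and 1241 CPM (log2 FC −0.43, SE 0.09, edgeR adjusted p = 0.62, DESeq2 0.0081). Lamp2, a protein of the lysosomal membrane, was at 1844, 1842, 2111 and 1733 CPM and then at 1514, 1484, 1241 and 1662 CPM (−0.35, SE 0.11). Both genes were lower in all older libraries than in any younger one, as was Tpp1. Of the 33, 4 lay wholly below and 1 wholly above, where 2.35% and 2.59% of all genes tested did. Iron and oxidative-stress genes were split 12 to 12, and 3 of 24 lay wholly above, against 2.59% of all genes tested. The ferritin light chain gene Ftl1 was at 946, 1014, 968 and 1051 CPM and then at 1274, 1182, 1328 and 1208 CPM (log2 FC 0.33, SE 0.09, edgeR adjusted p = 0.68). Cybb, the catalytic subunit of the phagocyte NADPH oxidase, was at 16.6, 12.5, 12.8 and 8.91 CPM and then at 40.6, 30.3, 30.3 and 20.02 CPM (1.25, SE 0.30, DESeq2 adjusted p = 0.032). Txnrd1, a thioredoxin reductase, was at 13.5 ± 5.09 and 26.7 ± 4.42 CPM. The mitochondrial peroxidase gene Prdx3, outside the list, was lower (112 ± 9.02 and 72.4 ± 11.8 CPM, DESeq2 adjusted p = 0.042). Lipid-handling genes were split, 10 higher and 8 lower. The cholesterol exporter gene Abcg1 was at 799, 896, 1570 and 822 CPM and then at 633, 661, 699 and 822 CPM. Its log2 FC of −0.54 was −0.26 without 4 months replicate 3. Cholesterol synthesis genes were higher in 5 and lower in 13 of 18, none outside the overlap (9 higher without 9 months replicate 5).

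Genes of the unfolded protein response were lower in 14 of 21 tested, with a median log2 FC of −0.16 (−0.21 without 9 months replicate 1, −0.08 without 4 months replicate 4). When libraries were scaled by their totals alone, 10 of 21 were higher (median −0.087, against 0.085 over all genes). The unfolded protein response matches the folding capacity of the endoplasmic reticulum (ER) to its load: the sensors IRE1 (Ern1), PERK and ATF6 act through XBP1 and ATF factors on genes of chaperones and of ER-associated degradation. All 4 members without overlap were lower, at a background of 2.35%. Ern1, the sensor, was at 16.7, 14.4, 15.8 and 13.8 CPM and then at 9.33, 4.47, 5.46 and 6.602 CPM (log2 FC −1.23, SE 0.34, edgeR adjusted p = 0.68). Herpud1, a factor of ER-associated degradation, was at 545, 681, 574 and 662 CPM and then at 503, 415, 502 and 502 CPM (−0.36, SE 0.12). Dnajb9, a co-chaperone of the ER lumen that restrains IRE1, was at 358, 398, 378 and 387 CPM and then at 348, 262, 267 and 306 CPM. Pdia4, a protein disulphide isomerase, was at 314, 381, 314 and 394 CPM and then at 279.9, 290.3, 262 and 200 CPM. In Herpud1 and Dnajb9 the highest older library lay only just under the lowest younger one. Hspa5, the main ER chaperone BiP, was at 2640 and 2299 CPM on average and overlapped.

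The promoters of this list were searched for an element of the response, as a description of their letters. The ER stress response element, which ATF6 and XBP1 bind, was searched as CCAAT and CCACG with 9 bases between them and, in its second form, as ATTGG and CCACG with 1 base between them, on both strands of 300 bases around each RefSeq start (250 before, 50 after; GRCm38.p6). Either form was present in 8 of the 20 list genes with a promoter in the table (40%) and in 49 of 27025 genes overall (0.181%). Among genes tested it was present in 23 of 8943 (0.257%). The list was made of genes of the response that this element serves, so its larger share is not a result of these data. Of the 4 members without overlap, Herpud1 held one and Ern1, Dnajb9 and Pdia4 held neither form in this window. The 150 bases before the start are shown for Herpud1 (chr8:94386279-94386428, plus strand), for Hspa5 (chr2:34771940-34772089, plus strand), whose level overlapped between the ages, and for Dnajb9 (chr12:44210069-44210218, minus strand), which was lower without such an element. Capitals mark the element, which ends 41 bases before the start in Herpud1 and 46 bases before it in Hspa5.
Herpud1: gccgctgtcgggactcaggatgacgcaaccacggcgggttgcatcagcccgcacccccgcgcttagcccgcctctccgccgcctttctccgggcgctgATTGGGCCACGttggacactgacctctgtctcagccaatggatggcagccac
Hspa5: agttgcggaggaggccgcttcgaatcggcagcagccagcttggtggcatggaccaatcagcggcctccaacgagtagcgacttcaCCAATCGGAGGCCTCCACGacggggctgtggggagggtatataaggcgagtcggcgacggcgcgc
Dnajb9: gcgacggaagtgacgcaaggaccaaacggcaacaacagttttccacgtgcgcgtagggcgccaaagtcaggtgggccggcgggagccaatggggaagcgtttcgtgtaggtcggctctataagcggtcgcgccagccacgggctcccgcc
The match is a description of these letters, and no factor's binding was measured.

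Ribosomal protein genes were higher in 54 of 70 tested, with a median log2 FC of 0.20 (0.21 without 9 months replicate 1 and 0.12 without 9 months replicate 3). Rpl3 was at 27.2, 19.8, 25.3 and 25.2 CPM and then at 39.4, 32.3, 39.99 and 54.6 CPM, without overlap, and Rpl41, Rpl4, Rps19 and Rpl13 were likewise wholly above. Rpl12 and Rpl31 were wholly below, Rpl12 at 2.35 ± 0.821 and 0.646 ± 0.334 CPM. Of the 70, 5 lay wholly above and 2 wholly below, where 2.59% and 2.35% of all genes tested did. Ribosomal protein genes have many near-identical processed pseudogenes, so their reads can be shared between loci and their levels are uncertain. Genes of the respiratory chain differed little: nuclear-encoded members were 44 higher and 29 lower (median 0.05; 58 higher when scaled by library totals). Mitochondrially encoded members were 7 higher of 7 (0.06), but 1 of 7 without 9 months replicate 3, 2 of 7 without 4 months replicate 4 and 3 of 7 without 4 months replicate 1. Sdha, the flavoprotein of succinate dehydrogenase, was wholly below (422 ± 28.4 and 333 ± 40.4 CPM). In glycolysis, 13 of 21 were higher (median 0.12), but 10 of 21 without 9 months replicate 1 (−0.018) and 9 of 21 without 4 months replicate 3 (−0.022), and the hexokinase gene Hk2 was at 339 ± 48.4 and 257 ± 15.6 CPM.

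Division, senescence, stress and clock genes were each split between higher and lower members. Proliferation genes were 14 higher and 16 lower of 30, with Top2a at 4.14 ± 2.76 and 11.1 ± 9.48 CPM. Senescence and damage-response genes were 6 higher and 8 lower of 14. Their sum was 1145 to 1278 CPM and then 1270 CPM in 9 months replicate 1 and 856.5 to 1026 CPM in the others. Without that replicate it lay below all younger libraries. Btg2, the member of smallest p, is also in the immediate early and stress list. It averaged 5011.5 raw counts at 4 months and 3832.5 at 9 months, so part of the lower sum came from this 1 gene. DESeq2 called Btg2 lower without 9 months replicate 1 (adjusted p = 0.038). The cell-cycle inhibitor gene Cdkn1a was at 24.8 ± 2.79 and 26.1 ± 9.75 CPM. Immediate early and stress genes, which respond to handling of the cells, were 8 higher and 13 lower of 21. Among them the heat-shock genes Hspa1a (22.4 ± 14.4 and 2.79 ± 3.29 CPM) and Dnajb1 (212 ± 65.8 and 128 ± 24.2 CPM) overlapped, and the transcription factor gene Klf6 lay wholly below (349.9, 316, 353 and 319 CPM, then 274, 289, 290.5 and 221 CPM). Clock genes were 9 higher and 8 lower of 17. The transcription factor gene Hlf was wholly above (7.74, 4.56, 8.43 and 1.51 CPM, then 12.3, 15.4, 40.3 and 12.2 CPM) and the repressor gene Bhlhe41 wholly below (221, 249.7, 394 and 196 CPM, then 185, 113, 104 and 193 CPM). The core clock outputs Nr1d1 (6.39 ± 4.61 and 2.25 ± 2.37 CPM) and Dbp (3.60 ± 1.49 and 2.05 ± 0.745 CPM) overlapped, and the hour of collection is not given in the labels. The actin gene Actb, often used as a reference, was also picked with its values known. It stood at 3712, 4508, 6232 and 3156 CPM and then at 2576, 2730, 2795 and 2904 CPM, wholly below.

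**Figure D2:**
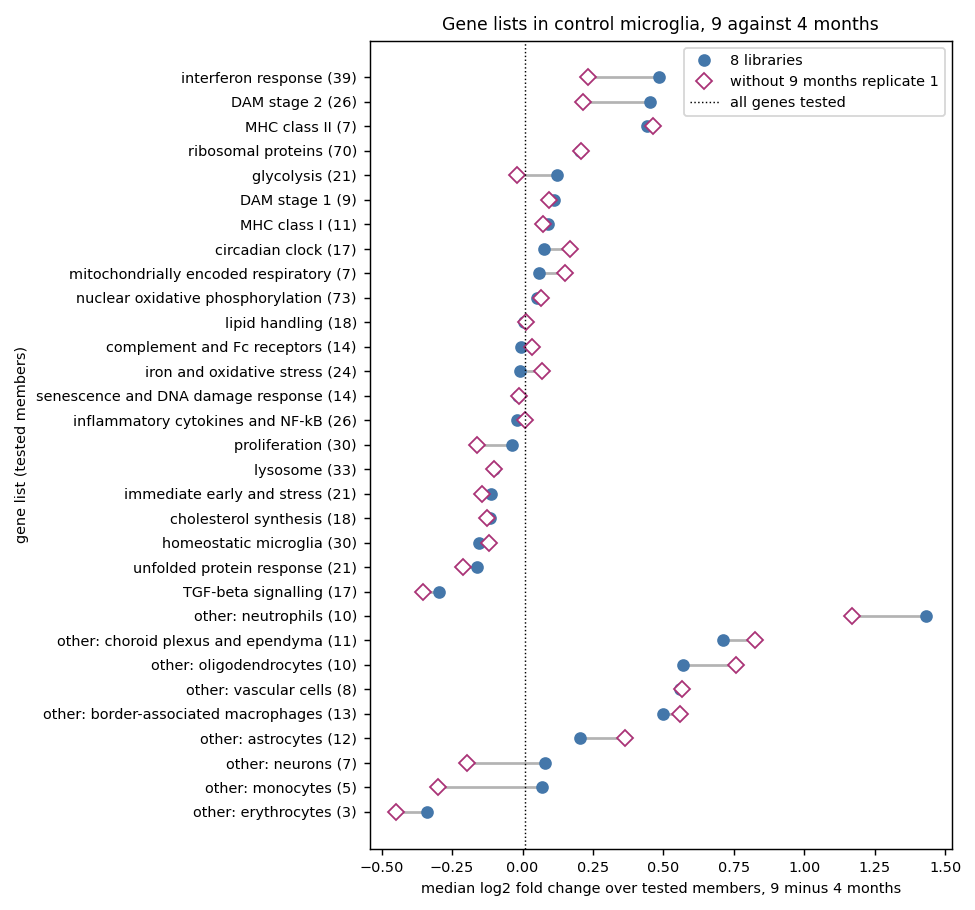
Median log2 fold change from 4 to 9 months (x axis) over the tested members of each gene list (y axis, number tested in brackets), with all 8 libraries (filled points) and without 9 months replicate 1 (open diamonds); the dotted line is the median of all genes tested. Interferon and DAM stage 2 lists move from 0.48 to 0.23 and from 0.45 to 0.21 when that library is left out, and the TGF-beta list lies at −0.30 and −0.35 (−0.15 without 9 months replicate 3).

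Markers of other cell types differed between libraries too, and their part in the results above was not tested. Neutrophil markers were higher in 7 of 10 tested, with a median log2 FC of 1.43 (1.17 without 9 months replicate 1, and 1.53 without replicate 2_4, where 7 could still be tested and 4 of these were higher). S100a9, a calgranulin subunit, was at 0.336, 31.6, 4.63 and 4.45 CPM and then at 12.6, 51.9, 50.8 and 38.5 CPM. Retnlg and the collagenase gene Mmp8 lay wholly above, yet Elane, Mpo and Prtn3, the granule enzymes of neutrophil precursors, were at 0 counts in all 8 libraries. The summed level of the 18 neutrophil markers was 168 to 522 CPM at 4 months and 230 to 491 CPM at 9 months. Csf3r was the largest member of that sum in every library and did not rise. It was at 269.7, 294, 127 and 254.4 CPM and then at 163, 240, 164.7 and 225.9 CPM. The sum therefore does not show how the other members differed. Ngp (0 to 75.9 and 2.698 to 61.53 CPM) and Camp (0 to 42.8 and 2.356 to 12.01 CPM) overlapped between the ages.

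Choroid plexus markers varied between libraries more than between ages. Their sum was 86.5 to 1597 CPM at 4 months and 9.20 to 3480 CPM at 9 months. Ttr, the transthyretin carrier secreted by that epithelium, was at 333, 541, 20.8 and 490.5 CPM and then at 747, 339, 1905 and 0 CPM, and 9 of 11 tested markers were higher (4 of 11 without 9 months replicate 3). The globin genes, from red blood cells, were near 0 in all libraries but 3: Hbb-bs had 8, 8, 6 and 5 counts at 4 months and 0, 156, 357 and 97 counts at 9 months, too few libraries to be tested. Lymphocyte markers summed to 1021 to 1151 CPM at 4 months and 944 to 1361 CPM at 9 months, nearly all of it from Ighm, the immunoglobulin heavy chain mu gene. The defining T cell markers Cd3e and Cd8a were among the 9 of 21 at 0 counts in all 8 libraries.

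Astrocyte markers were higher in 7 of 12 tested and lower in 5, with a median log2 FC of 0.205. Without 4 months replicate 1, 5 of 12 were higher (−0.098). They summed to 501 to 543 CPM at 4 months and 559 to 595 CPM at 9 months, without overlap, although Slc1a3 made up most of the sum. Atp1b2, the gene with the smallest p-value, belongs to this list. It made up 5.58 to 8.68 CPM of the sum at 4 months and 27.25 to 45.6 CPM at 9 months. This rise was wider than the gap between the sums of the ages, and without Atp1b2 the sums overlapped. Gfap, the defining filament of astrocytes, had 25, 195, 20 and 157 counts and then 120, 39, 52 and 101 counts, and Aqp4 had 3, 26, 6 and 22 counts and then 0, 30, 6 and 32 counts. Neither followed Atp1b2, while the lipid chaperone gene Clu lay wholly above (10.6, 32.4, 7.899 and 26.4 CPM, then 39.97, 36.9, 104 and 36.9 CPM). Sox9, also in the list, had 23, 68, 15 and 12 counts and then 1, 2, 28 and 0 counts. Sparcl1 and the neurotrophin receptor gene Ntrk2, both abundant in astrocytes, are outside the list and were picked with their values known. They were wholly above (15.7 ± 7.48 and 52.5 ± 30.2 CPM for Sparcl1, 2.45 ± 0.629 and 11.5 ± 7.31 CPM for Ntrk2). DESeq2 called both (adjusted p = 0.042 and 0.032), and without 9 months replicate 1 it called Sparcl1 (0.017) and gave no adjusted p for Ntrk2.

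Vascular markers were higher in 7 of 8 tested, with a median log2 FC of 0.56. Fewer passed the filter with a library left out: 4 of 6 tested were higher without 9 months replicate 1, 4 of 6 without 4 months replicate 1, and 2 of 5 without 9 months replicate 3, where the median was −0.003. The endothelial VEGF receptor gene Kdr had 10, 21, 13 and 0 counts and then 62, 119, 135 and 92 counts (DESeq2 adjusted p = 0.032). Pecam1, an adhesion molecule of endothelium that myeloid cells share, went the other way, at 59.5, 61.03, 56.7 and 39.99 CPM and then at 24.4, 15.4, 8.56 and 32.5 CPM (DESeq2 adjusted p = 0.045). Tek and Tie1, the angiopoietin receptors of endothelium, were at 0 in all libraries. Border-associated macrophage markers were higher in 10 of 13 tested (6 of 13 without 9 months replicate 2_4), with a sum of 187 to 306 CPM and 226 to 344 CPM. Oligodendrocyte markers were higher in 7 of 10 (5 of 10 without 9 months replicate 3), with Mbp at 10.8, 52.4, 23.8 and 51.8 CPM and then at 53.5, 52, 43.2 and 74.5 CPM. Monocyte and neuron markers summed to at most 45.9 and 59.9 CPM in any library.

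**Figure D3:**
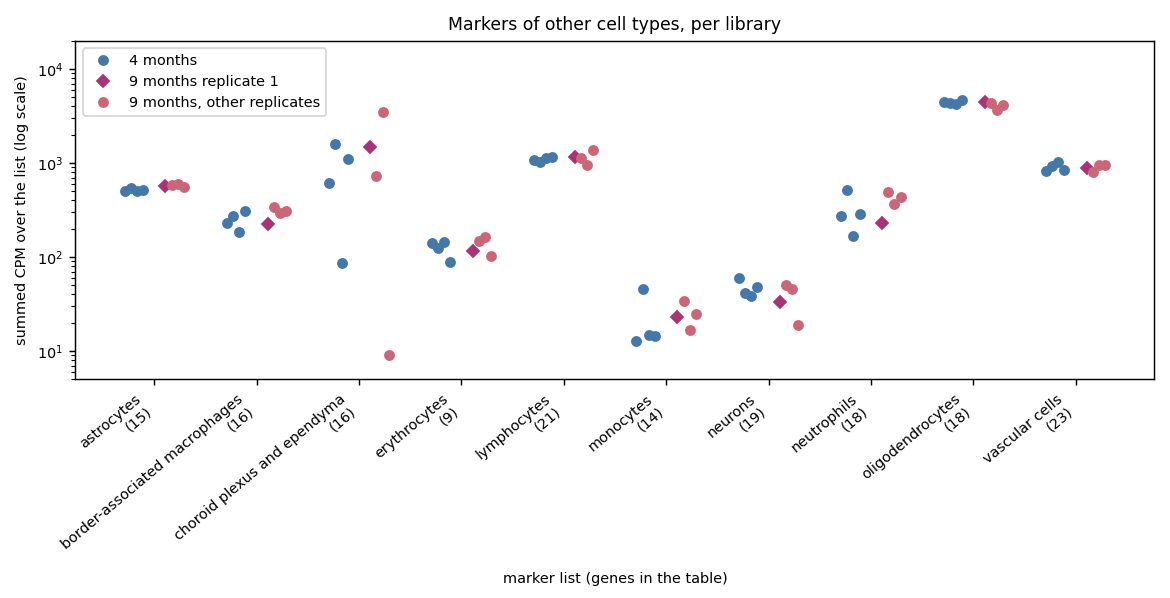
Summed CPM (y axis, log scale) of each marker list for other cell types (x axis, number of genes in brackets) in each library; blue points are 4 months, red points 9 months and the diamond 9 months replicate 1. Choroid plexus markers span 9.20 to 3480 CPM at 9 months. Only the astrocyte sums (501 to 543 and 559 to 595 CPM) do not overlap between the ages, and they do so only with Atp1b2 included.

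Wt libraries of 6 months are given for the non-overlapping genes as a description only, since these genes were chosen because the ages lay apart. The 6-month mean lay between the 4- and 9-month means in 225 of the 336 higher genes and in 223 of the 304 lower ones. It was at or above the higher mean in 76 and 32 genes and at or below the lower mean in 35 and 49. Apoe was at 1568 CPM on average at 6 months and Lyz2 at 462 CPM, both between the other ages. Tgfbr1 at 1639 CPM and Ftl1 at 1282 CPM lay near their 9-month means of 1669 and 1248 CPM. Abhd5 was at 36.7 CPM at 6 months, above its 4-month mean of 32.7 CPM, though its libraries there ran from 11.6 to 60.2 CPM, and Atp1b2 was at 0 to 34.5 CPM there, a range that covers both ages.

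**Figure D4:**
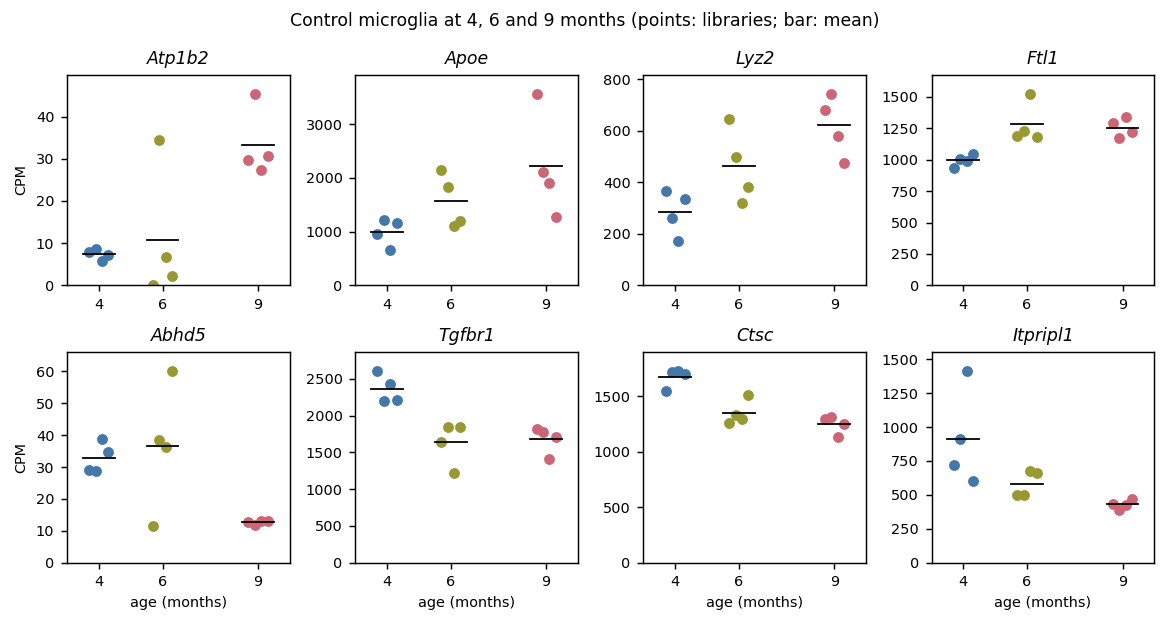
Level in CPM (y axis, from 0; scaled over the 12 wt libraries together) of 8 genes at 4, 6 and 9 months (x axis); points are libraries and bars are means of 4. Apoe and Lyz2 lie between the other ages at 6 months, Tgfbr1 (1639 CPM) and Ftl1 (1282 CPM) are near their 9-month means, and the 6-month libraries of Abhd5 spread over both ages.

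The genes without overlap held a larger share of pseudogenes than all genes tested, a difference that was not tested. In GENCODE vM21, 22.6% of the 336 higher genes and 12.8% of the 304 lower genes are annotated as pseudogenes, against 8.59% of all genes tested. One of them, Ftl1-ps1, was at 334 ± 19.4 and 500 ± 77.6 CPM (DESeq2 adjusted p = 0.019) beside its parent Ftl1, and reads of the 2 loci may be shared. The median exonic length was 2935 bases for the higher genes, 3921 for the lower ones and 3879 for all, while 11.9%, 4.61% and 8.37% exceeded 10000 bases. The sorting receptor gene Sorl1, linked to Alzheimer disease, was picked once its values were known. It stood at 31.2, 5.59, 17.8 and 18.5 CPM and then at 51.1, 40.3, 46.9 and 47.1 CPM. App, the amyloid precursor gene, was at 118 ± 21.3 and 139 ± 20.4 CPM, and the prion protein gene Prnp at 11.4 ± 7.29 and 12.3 ± 3.09 CPM. Both overlapped between the ages in these controls.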

How the data were processed

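The authors deposited raw counts per gene, as 1 file per library and as a series table, which was used here. It holds 36982 gene symbols and equals the library files in 24 of 24 libraries. The 16617 further symbols of those files had 0 counts. The submitters' processing notes name GRCm39 and these tools, without their roles: HTSeq 0.11.0, TopHat, cutadapt 2.10, Picard 2.13.2, SAMtools 1.10 and FastQC 0.11.9. No source used here gives the annotation release or the strand setting, so reads of overlapping and antisense genes cannot be told apart.

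Genes with at least 1 CPM in 4 of the 8 libraries (12957) were fitted with edgeR 4.0.16 (R 4.3.3) on these libraries alone: TMM factors of 0.947 to 1.048, the robust quasi-likelihood test, and Benjamini-Hochberg adjustment over all genes tested with a limit of 0.05. Of these, 5 passed through 9-month libraries alone and 12 through 4-month libraries alone. A floor of 3 counts equals 0.202 to 0.325 CPM in a library, which covers counting error only. Levels at 6 months use TMM over the 12 wt libraries. Alternatives were DESeq2 1.42.0, limma 3.58.1 (voom with quality weights), other filters and scalings, fits of 12 or 24 libraries, a replicate block, each library left out, and a limit of 0.01. DESeq2 without 9 months replicate 1 was added after seeing the data.

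Members and lists were chosen with earlier results of these data known. The rule for named genes takes called genes or, where fewer than 5 are called in a direction, the 5 with the smallest p, in the fits with and without 9 months replicate 1. From each list it adds the members of smallest p (4 at most), then set members such as P2ry12, Cst7 and App, and the genes behind a list count of 5 or fewer. Other genes, among them those called by DESeq2 alone, Hspa5, Gfap, Aqp4, Slc1a3, Sparcl1, Ntrk2, Actb, Sorl1, Ftl1-ps1 and Prdx3, were picked with their values known. Promoter sequences are from RefSeq (GRCm38.p6). Exonic lengths and gene types are from GENCODE vM21, matched for 99.9% of genes tested. No coordinates of the authors' build are used. Some genes of the rule are not reported here.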

Additional observations from a re-analysis of the deposited data

Results flagged for a closer look

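In 24 of 290 groups of 4 libraries, 1 library lay far from the other 3, by Dixon's gap criterion at the 95% level. Chance alone gives about 1 in 20 groups. Levels are in CPM.

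At 4 months, replicate 3 was the library apart most often. Abcg1 was high there at 1570 (799 to 896.5 in the others). Tmem119 was low at 3479 (6959 to 7431), Cx3cr1 at 6119 (10460 to 11000) and Csf1r at 2752 (6768 to 7013). Summed over a list, immediate early and stress genes were low at 4657 and nuclear oxidative phosphorylation genes high at 7126. Replicate 2 was high in Cdkn1a (28.97), S100a9 (31.63) and the monocyte marker sum (45.9), and low in Lsp1 (56.39). Replicate 1 was high in Axl (11.77) and in the inflammatory gene sum (3150).

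At 9 months, replicate 1 was high in Cst7 (285.0, against 11.36 to 29.47 in the others), Clec7a (159.4), Igf1 (20.43), Irf7 (24.06) and 5930430L01Rik (1.375). Replicate 3 was high in Hlf (40.26) and Clu (104.3) and low in the lysosomal gene sum (90170). Replicate 2_4 was high in Atp1b2 (45.63) and Prdx3 (89.94) and low in Herpud1 (415.4). Replicate 5 was high in Mmp8 (22.73). What set these libraries apart was not tested.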

How the results depend on the processing

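edgeR called 0 genes higher at 9 months under every edgeR setting run, and 0 lower under all but 1. Over the libraries left out in turn, it called 0 to 2 genes lower, and the 2 (Map3k1 and Numb) came without 4 months replicate 4. limma-voom called 0 (496 higher and 462 lower at an unadjusted p under 0.05). DESeq2 called 36 higher and 27 lower, and 17 higher and 37 lower without 9 months replicate 1, with 31 genes shared. Deviations from the age mean correlated little between same-numbered libraries (r = 0.027 for number 1 and −0.029 for number 3). Differently numbered libraries lay at −0.044 to 0.068. With only these numbers shared, this cannot exclude a common origin of same-numbered libraries, which the labels do not give. The libraries were treated as unpaired. With a replicate block edgeR called 0 higher and 0 lower (363 and 391 at an unadjusted p under 0.05). Scaling by library totals moved the median of all genes from 0.007 to 0.085. The log2 fold change turned in sign for 12 genes, none called. With the replicate block it was −0.62 for Itgax, −2.02 for Igf1, 0.15 for Gfap and −0.41 for Aqp4. With voom it was −0.37 for Itgax, −2.36 for Igf1, −0.016 for Trem2, −0.26 for Cdkn1a, −1.19 for Ttr and −0.18 for Aqp4. With DESeq2 without 9 months replicate 1 it was −0.90 for Itgax, −3.26 for Igf1, −0.003 for Trem2, −0.14 for Axl and 0.26 for Il1b. Over the libraries left out in turn it ran from −0.072 to 0.134 for Sall1, −0.035 to 0.090 for Trem2, −0.894 to 1.898 for Itgax, −0.133 to 1.218 for Axl, −3.196 to 1.022 for Igf1 and −0.015 to 0.229 for H2-K1. It ran from −0.802 to 0.318 for Il1b, −0.056 to 0.318 for Cdkn1a, −0.129 to 0.592 for Prnp, −0.609 to 0.253 for Gfap and −0.098 to 0.655 for Aqp4. The cause was not tested. At this depth a gene with under 3 counts in a library could not be told from one with none.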
